A study of Mus musculus with 4 samples.

Results

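Genes of glycolysis, lactate handling and the non-oxidative pentose phosphate pathway were followed in ribosome footprint data from whole mouse testes at day 10. The 10 genes were chosen by symbol and comprised Tktl1, Tkt, Taldo1, Ldha, Ldhb, Ldhc, Pgk1, Pkm, Hk1 and Slc16a1. Of these, 9 of the 14984 genes in the deposited table were matched by name, and 8 of those passed the filter on low values and were tested among 12095 genes. Pgk1, a glycolytic phosphoglycerate kinase gene on the X chromosome, had no row in the table and was not analysed here. Ldhc had a row but too few reads to be tested.

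Ribosome profiling reads the stretches of mRNA shielded by ribosomes during nuclease treatment, so a gene's read count follows both its mRNA level and how heavily that mRNA is translated. The 4 libraries came from 2 control testes samples and 2 samples (Eif5 cKO) from mice in which a floxed Eif5 allele (Eif5fl/fl) was deleted by a Stra8-Cre transgene. Stra8-Cre acts in germ cells from the spermatogonial stage, so Sertoli, Leydig and other somatic cells keep Eif5, as do germ cells in which the recombinase has not acted. The genotype of the controls, the strain and the number of animals behind a sample were not stated in the labels. The p-values therefore reflect the spread among these 4 samples alone, pooled largely over genes, and part of that spread could be technical. RNA libraries were not analysed here, so mRNA level and translation were not separated.

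As background, glycolysis splits glucose into pyruvate, lactate dehydrogenase (LDH) interconverts pyruvate and lactate, and monocarboxylate transporters carry lactate across the plasma membrane. In the testis, Sertoli cells are known to convert glucose to lactate that spermatocytes and spermatids take up as fuel. Male germ cells also make isozymes of their own for several of these enzymes. Among them are the lactate dehydrogenase LDH-C, from Ldhc, and the X-linked transketolase-like protein of Tktl1. Transketolase and transaldolase, from Tkt and Taldo1, shuttle carbon between pentose phosphates and glycolysis.

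The libraries held 2225964 to 2934609 reads. Eif5, the targeted gene, encodes an initiation factor that promotes GTP hydrolysis during start codon selection. In control its normalised read counts were 365 and 304, and in Eif5 cKO 173 and 266, where a normalised read count is the deposited value, the reads divided by a size factor of the library. Both Eif5 cKO values lay below both controls, but the log2 fold change of -0.63 (SE 0.25) had an adjusted p of 0.319 in limma. Reads were summed over the gene, and its deleted part was not read separately. The marker lists of germ cells, Sertoli cells, Leydig cells, peritubular myoid cells and macrophages each had reads in every library.

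The 4 upstream windows that follow belong to the germ cell isozyme and a general isozyme of transketolase and of LDH, and are shown because these pairs are set against each other in the results. Each window is the 250 bases before a RefSeq start site (GRCm38.p6), 5′ to 3′ on the gene's strand, and capitals mark GGGCGG, the GC box, on either strand. They are chrX:74177009-74177258 (plus strand) for Tktl1, chr14:30548881-30549130 (plus) for Tkt, chr7:46861013-46861262 (plus) for the first of 2 Ldhc start sites, and chr6:142507958-142508207 (minus) for Ldhb.
Tktl1: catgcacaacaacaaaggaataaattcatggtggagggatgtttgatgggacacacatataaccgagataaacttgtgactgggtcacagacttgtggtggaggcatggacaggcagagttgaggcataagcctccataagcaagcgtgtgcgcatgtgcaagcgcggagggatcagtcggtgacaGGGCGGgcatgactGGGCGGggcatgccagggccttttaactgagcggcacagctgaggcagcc
Tkt: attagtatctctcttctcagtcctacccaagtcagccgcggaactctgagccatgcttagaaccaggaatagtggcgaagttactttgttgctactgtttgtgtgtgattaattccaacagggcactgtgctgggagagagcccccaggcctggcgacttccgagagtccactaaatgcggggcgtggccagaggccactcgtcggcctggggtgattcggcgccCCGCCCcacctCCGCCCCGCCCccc
Ldhc: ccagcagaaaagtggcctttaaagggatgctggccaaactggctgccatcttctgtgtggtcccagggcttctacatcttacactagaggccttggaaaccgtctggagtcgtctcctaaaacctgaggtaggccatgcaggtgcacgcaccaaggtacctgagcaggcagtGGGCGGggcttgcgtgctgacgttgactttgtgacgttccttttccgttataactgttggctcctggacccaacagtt
Ldhb: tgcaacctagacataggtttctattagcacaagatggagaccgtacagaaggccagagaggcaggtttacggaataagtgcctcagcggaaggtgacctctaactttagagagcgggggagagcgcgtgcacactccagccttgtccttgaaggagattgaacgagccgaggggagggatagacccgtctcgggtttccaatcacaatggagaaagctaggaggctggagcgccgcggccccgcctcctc

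The GC box occurred 2 times in the Tktl1 window, 3 times in the Tkt window with 2 of the copies sharing a letter, once in the Ldhc window and not in the Ldhb window. Of all 32851 upstream windows of the same length, 32.7% held it. The CG dinucleotide, whose median count over all windows was 6, occurred 9 times for Tktl1, 14 times for Tkt, 8 times for Ldhc and 14 times for Ldhb. The Ldhc window also held TGACG, the core of a cyclic AMP response element, 2 times, a motif found in 17.8% of windows and in none of the other 3 printed here. It was not particular to the germ cell gene. Among windows not printed, the first Ldha window held it 2 times, on the 2 strands of 1 TGACGTCA. The second Ldha window and the Taldo1 window each held it 1 time, and the second Ldhc window 0 times. Matches of letters describe these windows only.

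Footprints of Tktl1, the germ cell transketolase gene, fell in Eif5 cKO testes, and no other tested gene of the set passed. Of the 8 tested genes, 1 fell (Tktl1) and 0 rose in limma at an adjusted p under 0.05. Over all genes tested, 0.604% fell and 0.0744% rose, or 0.678% in either direction. At an unadjusted p under 0.05, 1 of the 8 was lower (Tktl1) and 1 higher (Ldhb), against 763 lower and 523 higher of 12095 genes tested, or 10.6% in either direction. The edgeR, DESeq2 and limma-voom fits each called 1 of the 8 lower and 0 higher. The median log2 fold change of the 8 genes was 0.18, against 0.003 over all genes tested. Together the 9 listed genes took 0.148% and 0.134% of control reads and 0.158% and 0.156% of Eif5 cKO reads.

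**Figure D1:**
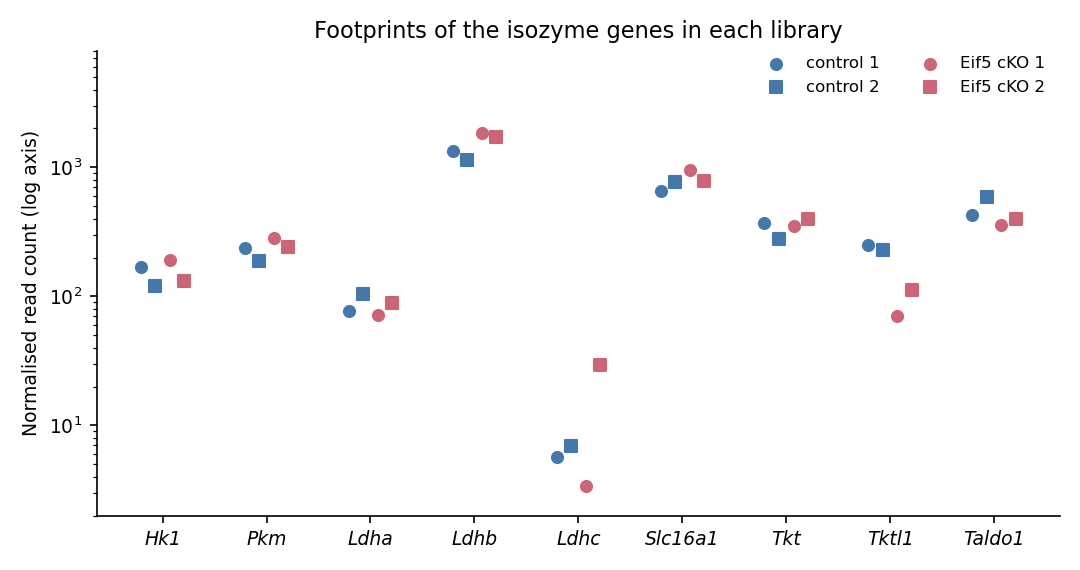
Normalised read count (log axis) of the 9 listed genes in each of the 4 libraries, with control in blue, Eif5 cKO in red, circles for replicate 1 and squares for replicate 2. Both Eif5 cKO points of Tktl1, at 70.4 and 112, lie below both control points, at 251 and 230, and Ldhc is the only gene with a value under 10. Gene length was not taken into account, so heights are comparable within a gene and not between genes.

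Tktl1 lies on chromosome X at 74177259 to 74208498 (GRCm38). Control replicates 1 and 2 had normalised read counts of 251 and 230, from 308 and 200 reads. Eif5 cKO replicates 1 and 2 had 70.4 and 112, from 62 and 125 reads. The groups did not overlap, and Eif5 cKO replicate 1 was the lowest library. Among all genes tested, 40.8% had groups that did not overlap in one direction or the other; among the 8 isozyme genes these were Tktl1 and Taldo1, lower, and Ldhb, Pkm and Slc16a1, higher. The mean went from 240 ± 15.4 to 91.3 ± 29.5 (SD, n = 2 each), a log2 fold change of -1.42 (SE 0.28, 95% interval -1.99 to -0.85) or 2.68-fold lower on the log2(value + 1) scale. The adjusted p was 0.00418 (limma, Benjamini-Hochberg), the 31st smallest p of 12095 genes. Without control replicate 1 or control replicate 2 the call was lost, with log2 fold changes of -1.36 and -1.49 and limma adjusted p of 0.291 and 0.106. The direction held in both, and the other fits, with adjusted p from 4.75e-05 to 0.0444, kept the call.

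Most tested markers of the meiotic prophase, pan germ cell and spermatogonia lists moved in the same direction as Tktl1. The 4 tested spermatid markers, with few reads, had positive log2 fold changes (median 0.67), and none passed in limma. Fewer germ cells, less RNA per cell and less translation of that RNA cannot be told apart in whole testis footprints. Over all 12095 genes tested, 0.604% fell and 6014 had a negative log2 fold change. Of 16 tested markers of meiotic prophase, 11 fell, and the log2 fold changes were negative for all 16 (median -1.53). The summed reads of the 18 listed markers were 0.180% to 0.201% of control libraries and 0.0620% to 0.0776% of Eif5 cKO libraries. Spo11, which makes meiotic DNA breaks, had 0 reads in both Eif5 cKO libraries and 3 and 7 in control. It was near the limit of detection, did not pass the filter and was not tested. Of 11 pan germ cell markers 6 fell, with a median of -1.002, and the list took 0.220% to 0.258% of control and 0.0983% to 0.121% of Eif5 cKO reads. Of 11 tested spermatogonia markers, 1 fell (Stra8), and 9 log2 fold changes were negative and 2 positive (median -0.45). The list took 0.143% to 0.162% of control reads and 0.0992% to 0.103% of Eif5 cKO reads. Stra8 held 1030 of 4757 and 511 of 3182 list reads in control. In Eif5 cKO it held 243 of 2278 and 236 of 2857.

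Tktl1 reads were also set against these markers within each library, and the values differed with the marker list used. It had 5.21 and 5.00 reads per 100 meiotic prophase marker reads in control and 4.35 and 5.79 in Eif5 cKO. These values overlapped (exact permutation test, two-sided p = 1, n = 2 each), and the group means were 5.10 and 5.07. Against pan germ cell markers there were 4.07 and 4.08 Tktl1 reads per 100 in control and 2.75 and 3.71 in Eif5 cKO. Against spermatogonia markers the values were 6.47 and 6.29 in control against 2.72 and 4.38 in Eif5 cKO. Both of the last comparisons showed no overlap, with an exact permutation p of 0.333, the smallest that 2 samples against 2 can give. These ratios were chosen after seeing the data, and the part of germ cell content in the fall of Tktl1 was not tested.

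Tkt, the general transketolase gene (chromosome 14, 30549131 to 30574724), had normalised read counts of 371 and 280 in control against 351 and 400 in Eif5 cKO. The groups overlapped. Its log2 fold change was 0.22 (SE 0.24, 95% interval -0.26 to 0.70) with an adjusted p of 0.803 in limma, and -0.23 with the libraries scaled on Sertoli markers. The third family member, the retrogene Tktl2, had 47 and 6 reads in the control libraries, then 18 and 32 in Eif5 cKO. The controls lay on both sides of the Eif5 cKO samples, and no difference was detectable at this depth (adjusted p = 0.838 in limma).

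Within the transketolase family, Tktl1 took a smaller share of the reads in both Eif5 cKO libraries. It took 38.0% of the Tkt, Tktl1 and Tktl2 reads in control replicate 1 (exact 95% binomial interval 34.7% to 41.5%, 810 reads) and 44.4% in control replicate 2 (39.8% to 49.2%, 450 reads). It took 15.9% in Eif5 cKO replicate 1 (12.4% to 19.96%, 389 reads) and 20.7% in Eif5 cKO replicate 2 (17.6% to 24.2%, 603 reads). The interval of neither Eif5 cKO library reached that of a control. Such intervals cover counting error only. The means were 41.2% ± 4.54 and 18.3% ± 3.39 (SD, n = 2 each), and the exact permutation test gave the smallest two-sided p possible, 0.333. The share does not depend on how libraries are scaled, and it was not corrected for gene length.

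**Figure D2:**
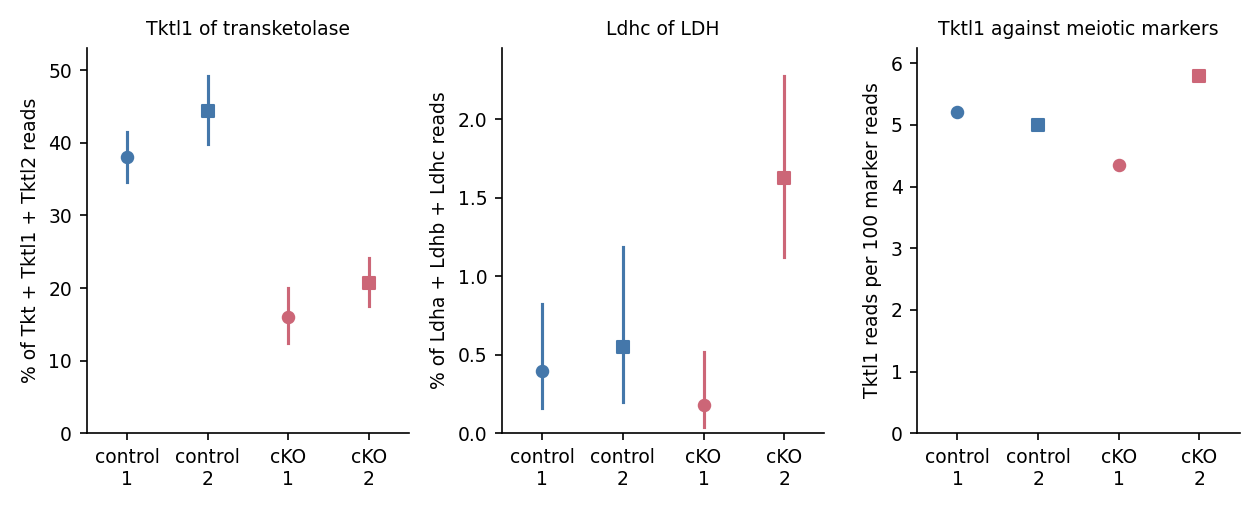
Percentage of transketolase reads from Tktl1 (left), percentage of LDH reads from Ldhc (middle) and Tktl1 reads per 100 meiotic prophase marker reads (right) in each library, with control in blue and Eif5 cKO in red. Bars are exact 95% binomial intervals (left and middle). The Tktl1 share is 38.0% and 44.4% in control against 15.9% and 20.7% in Eif5 cKO, while the values in the right panel, 5.21 and 5.00 against 4.35 and 5.79, overlap.

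Taldo1 (chromosome 7, 141392160 to 141402976), the transaldolase that works beside transketolase, had normalised read counts of 429 and 584 in control against 356 and 399 in Eif5 cKO. Both Eif5 cKO values lay below both controls, with control replicate 2 well above the rest. Its log2 fold change was -0.41 (SE 0.23, 95% interval -0.88 to 0.06), which did not pass in limma (adjusted p = 0.562).

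The rest of the pentose phosphate pathway had no calls, where 0.678% of all genes tested passed in limma. Of 13 tested genes of the list, which includes Tkt, Taldo1 and Tktl2, 1 fell (Tktl1) and 0 rose, and the median log2 fold change was -0.10. No gene of the list was higher at an unadjusted p under 0.05, and the other 3 tools called 0 higher. The genes outside the isozyme set with the smallest p were G6pdx and Pgls. G6pdx, the X-linked glucose-6-phosphate dehydrogenase that opens the pathway, had 168 and 152 in control against 209 and 218 in Eif5 cKO, with both Eif5 cKO samples higher (log2 fold change 0.42, SE 0.26, adjusted p = 0.599 in limma). Its sign turned with the libraries scaled on Sertoli markers (-0.03). Pgls, the next enzyme, had 120 and 110 in control against 211 and 117 in Eif5 cKO, where the groups overlapped (0.45, SE 0.29, adjusted p = 0.630 in limma).

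The LDH genes encode the A (muscle-type), B (heart-type) and C (testis) subunits of the tetrameric enzyme. Ldhb (chromosome 6, 142490249 to 142507957) had normalised read counts of 1348 and 1149 in control against 1847 and 1705 in Eif5 cKO, with both Eif5 cKO libraries above both controls. The mean went from 1249 ± 141 to 1776 ± 101 (SD, n = 2 each), with a log2 fold change of 0.51 (SE 0.23, 95% interval 0.05 to 0.98). Its adjusted p over all genes was 0.406 in limma, short of the threshold, and the log2 fold change was 0.06 with the libraries scaled on Sertoli markers. Of 16 Sertoli cell markers, 1 rose (Hsd17b1), with a median of 0.40. Over all genes tested, 0.0744% rose and 0.678% passed in either direction. The Sertoli list took 2.06% and 2.69% of control and 3.64% and 2.66% of Eif5 cKO reads. At an unadjusted p under 0.05, 7 of the 16 were higher and 1 lower, against 523 higher and 763 lower of 12095 genes tested (10.6% in either direction). Most reads of the list were from Clu. In control it had 43583 of 60500 and 45865 of 59825 list reads, and in Eif5 cKO 62222 of 83706 and 53912 of 73918. Scaling on Sertoli markers therefore rested mainly on Clu, whose groups overlapped (adjusted p = 0.816 in limma). Of 8 Leydig cell markers 0 passed in limma, edgeR, DESeq2 or limma-voom and 6 were higher at an unadjusted p under 0.05, with a median of 0.71 and 0.0746% and 0.0847% of control reads against 0.122% and 0.115% of Eif5 cKO reads. Of 9 macrophage markers 0 passed in these tools and 2 were higher at an unadjusted p under 0.05, with a median of 0.42 and 0.0466% and 0.0533% of control reads against 0.0626% and 0.0688% of Eif5 cKO reads. Not all somatic lists went this way. Of 7 peritubular myoid markers, 6 had a negative log2 fold change (median -0.20). That list took 0.278% and 0.272% of control and 0.260% and 0.217% of Eif5 cKO reads. Of 7 endothelial markers, 2 were negative and 5 positive (median 0.07). The part of these cell types in the level of Ldhb was not tested.

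Ldha (chromosome 7, 46842274 to 46855627) had 77.5 and 104 in control against 71.6 and 88.8 in Eif5 cKO, and the groups overlapped. Its log2 fold change was -0.17 (SE 0.33, 95% interval -0.83 to 0.49, adjusted p = 0.900 in limma), and 0.04 without control replicate 2. Ldha has near-identical processed copies in the genome, and how multiply mapping reads were counted is not stated, so its count is uncertain. Ldhb took 94.6% and 91.7% of the Ldha and Ldhb reads in control and 96.3% and 95.05% in Eif5 cKO (exact permutation test, two-sided p = 0.333, n = 2 each, the smallest possible). Control replicate 2 was the lowest, and the 95% interval of Eif5 cKO replicate 2 (94.0% to 96.0%) overlapped that of control replicate 1 (93.4% to 95.6%).

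Ldhc (chromosome 7, 46861263 to 46878147), the LDH gene of spermatocytes and spermatids, was near the limit of detection at day 10. It had 7 and 6 reads in control against 3 and 33 reads in Eif5 cKO, or normalised read counts of 5.71 and 6.89 and then 3.41 and 29.6. Eif5 cKO replicate 2 was the single high library, and Eif5 cKO replicate 1 was the lowest of the 4. With no filter on low values the log2 fold change was 0.67 (SE 0.91, adjusted p = 0.864 in limma over 14984 genes), so no difference was detectable at this depth. Ldhc took 0.399% of LDH reads in control replicate 1 (exact 95% binomial interval 0.161% to 0.821%), 0.546% in control replicate 2 (0.201% to 1.19%), 0.177% in Eif5 cKO replicate 1 (0.0366% to 0.517%) and 1.62% in Eif5 cKO replicate 2 (1.12% to 2.27%). Without Eif5 cKO replicate 2 the difference of the group means turned from 0.428 to -0.295 percentage points. Of 10 spermatid markers 9 were listed, and only 4 had enough reads to be tested. The 9 took 0.00157% and 0.00297% of control and 0.00431% and 0.00356% of Eif5 cKO reads. These were 46 and 66 reads in control and 99 and 99 in Eif5 cKO. Their part in the reads of Ldhc was not tested.

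Of the germ cell isozyme genes, Tktl1 had 62 to 308 reads in every library and was lower in both Eif5 cKO samples, whereas Ldhc had at most 7 reads in 3 libraries and was neither lower nor higher in both. The difference between the changes of these 2 genes was not tested, because Ldhc did not pass the filter.

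**Figure D3:**
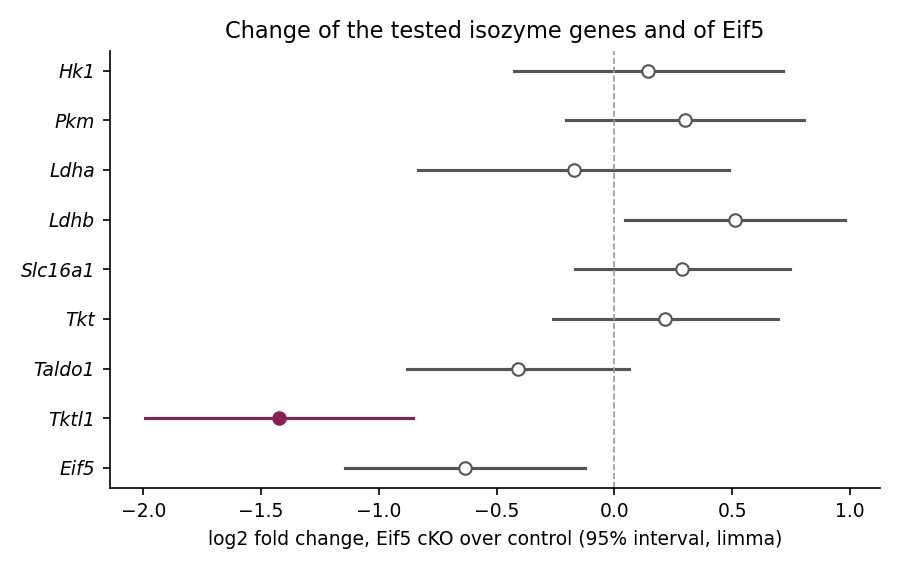
log2 fold change of Eif5 cKO over control with its 95% interval (limma) for the 8 tested genes and Eif5, where a filled point passed at an adjusted p under 0.05. Tktl1, at -1.42, is the one filled point, the interval of Ldhb (0.05 to 0.98) lies above 0 without passing over all genes, and the intervals of the other 6 isozyme genes include 0.

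Hk1 and Pkm encode the enzymes at both ends of glycolysis, hexokinase 1, which phosphorylates glucose, and the muscle-type pyruvate kinase. Hk1 (chromosome 10, 62268855 to 62379920) had normalised read counts of 170 and 121 in control against 191 and 131 in Eif5 cKO. The replicates of a group differed more than the groups did, with replicate 1 higher in each. Its log2 fold change was 0.14 (SE 0.28, 95% interval -0.43 to 0.71, adjusted p = 0.904 in limma), and its sign turned without control replicate 2 (-0.10), without Eif5 cKO replicate 1 (-0.13) and with the libraries scaled on Sertoli markers (-0.30). Pkm (chromosome 9, 59656576 to 59679372) had 236 and 189 in control against 283 and 240 in Eif5 cKO, where the lower Eif5 cKO value was just above the higher control. Its log2 fold change was 0.30 (SE 0.25, 95% interval -0.20 to 0.80, adjusted p = 0.720 in limma), or -0.15 with the libraries scaled on Sertoli markers.

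Slc16a1 (chromosome 3, 104638664 to 104658462) encodes the monocarboxylate transporter MCT1, which moves lactate and pyruvate with protons. Its normalised read counts were 651 and 770 in control against 953 and 785 in Eif5 cKO. The Eif5 cKO values were both above the controls, with Eif5 cKO replicate 2 close to control replicate 2. Its log2 fold change was 0.29 (SE 0.23, 95% interval -0.17 to 0.74, adjusted p = 0.699 in limma), or -0.16 with the libraries scaled on Sertoli markers. That scaling moved the median of all genes tested to -0.44 and that of the 8 isozyme genes to -0.27.

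In the wider list of lactate and pyruvate genes, 0 of 21 tested genes passed in limma, edgeR, DESeq2 or limma-voom. Of all genes tested, 0.678% passed in limma. In the list 3 had an unadjusted p under 0.05, against 10.6% of all genes tested. The median log2 fold change was 0.006, and the list took 0.276% and 0.275% of control and 0.270% and 0.277% of Eif5 cKO reads. Bsg encodes basigin, the chaperone that brings MCT1 to the membrane, and had 1592 and 2125 in control against 1378 and 1371 in Eif5 cKO (log2 fold change -0.42, SE 0.23). Emb, embigin, a relative with the same kind of role, had 64.5 and 80.3 in control against 114 and 138 in Eif5 cKO, with both Eif5 cKO samples higher (0.79, SE 0.31, adjusted p = 0.318 in limma). Pdhx, a structural component of the pyruvate dehydrogenase complex, had 152 and 137 in control against 84.1 and 102 in Eif5 cKO, with both lower (-0.63, SE 0.29, adjusted p = 0.429 in limma).

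General glycolysis genes also had no calls, where 0.678% of all genes tested passed in limma. Of 24 genes in that list 18 had rows and 14 were tested. None of the 14 passed in limma, edgeR, DESeq2 or limma-voom, and 2 had an unadjusted p under 0.05, where 10.6% of all genes tested did. The median log2 fold change was 0.06. Those 2 were Aldoc, an aldolase, with 57.9 and 47.1 in control against 35.2 and 11.7 in Eif5 cKO (-1.31, SE 0.51, adjusted p = 0.302 in limma), and Gpi1, glucose-6-phosphate isomerase, with 192 and 183 in control against 148 and 92.4 in Eif5 cKO (-0.67, SE 0.28, adjusted p = 0.351 in limma). In both genes Eif5 cKO replicate 2 was the lowest library, and Aldoc rested on that library. Without Eif5 cKO replicate 2 its log2 fold change was -0.56 (adjusted p = 0.594 in limma), and without Eif5 cKO replicate 1 it was -2.07 (adjusted p = 0.0191 in limma), a fit in which 13 reads of 1 library stand for Eif5 cKO. Gapdh, which like Ldha has many near-identical processed copies, had 40 and 18 reads in control, then 27 and 33 in Eif5 cKO, and its count is uncertain too.

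Of the 12 germ cell forms of these enzymes, 9 had rows and 4 were tested. Pgk2, Aldoart1 and Ldhal6b had no row, and the remaining forms had too few reads to pass the filter. Tktl1 was the 1 called gene, and the median was 0.02. Gapdhs, the sperm glyceraldehyde-3-phosphate dehydrogenase, had 3 and 0 reads in control against 10 and 0 in Eif5 cKO. Pfkfb4, a bifunctional enzyme that sets fructose-2,6-bisphosphate, had 14 and 12 reads in control against 31 and 20 in Eif5 cKO (log2 fold change 0.95, SE 0.65, adjusted p = 0.642 in limma). For glucose uptake and glycogen, 0 of 15 tested genes passed in limma, edgeR, DESeq2 or limma-voom, and the median was 0.08. At an unadjusted p under 0.05 there were 0. Over all genes tested, 0.678% passed in limma and 10.6% had an unadjusted p under 0.05. The smallest p values there were those of the glucose transporter genes Slc2a1, with 140 and 239 in control against 253 and 269 in Eif5 cKO (0.51, SE 0.26), and Slc2a12, with 36.7 and 55.1 against 28.4 and 25.1 (-0.73, SE 0.47).

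**Figure D4:**
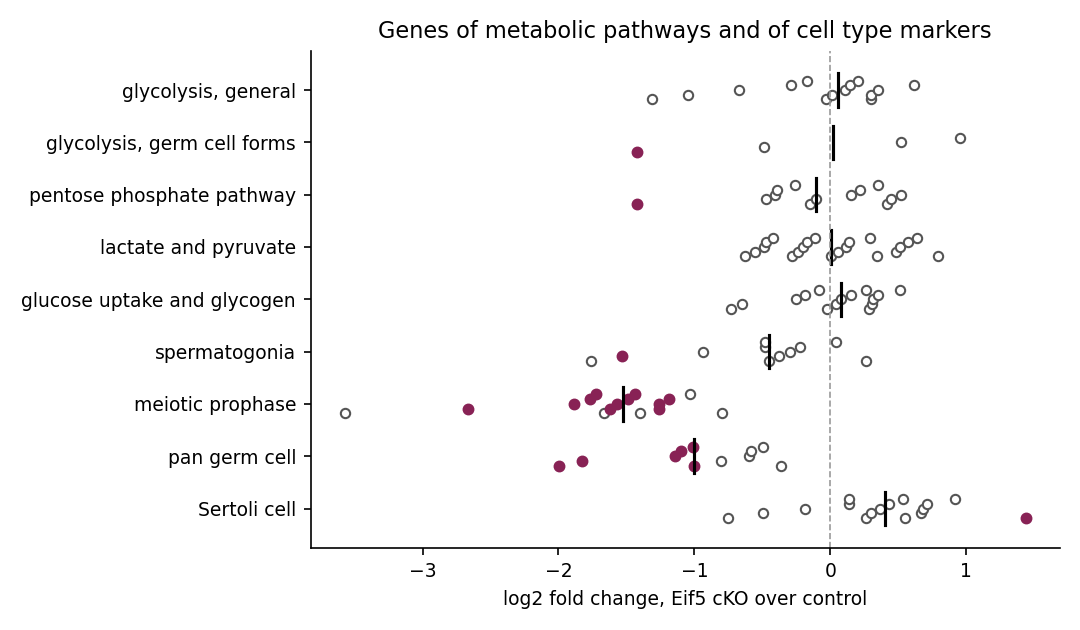
log2 fold change of every tested gene in the 5 metabolic lists and in 4 cell type marker lists, with filled points for genes that passed at an adjusted p under 0.05 and a black bar at each list's median. The medians of the metabolic lists lie between -0.10 and 0.08, with Tktl1 as the 1 filled point (drawn in both lists that hold it), while the medians are -0.45 for spermatogonia, -1.53 for meiotic prophase, -1.002 for pan germ cell and 0.40 for Sertoli cell markers.

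The genes whose pattern over the 4 libraries was nearest to that of Tktl1 were Syce1, Boll, Dennd2c, Tex15 and Cdc7, by Euclidean distance between mean-centred log2 values among 9475 genes with a mean CPM (counts scaled to equal library totals) of at least 10. Their distances ran from 0.164 (Syce1) to 0.206 (Cdc7). Syce1 encodes a central element protein of the synaptonemal complex, Boll a germ cell RNA-binding protein, Tex15 a germ cell protein needed in meiosis and Cdc7 a kinase that starts DNA replication. Syce1 had normalised read counts of 224 and 218 in control against 57.9 and 106 in Eif5 cKO, where, as for Tktl1, Eif5 cKO replicate 1 was the lowest library. With 4 libraries such likeness rests mainly on the difference between the groups.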

How the data were processed

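Ribosome footprints from 4 mouse testis libraries were mapped and counted by the authors with Bowtie2, STAR and featureCounts on GRCm38, per the submitters' processing notes; no versions, strand or multiple-mapping settings were stated there. The deposited signal was headed raw counts but was not whole. Each value was a whole multiple of 1 unit per library, and the step gave whole reads for 100% of values (relative tolerance 1e-06) with size factors of 0.871 to 1.23, equal to median-of-ratios factors. No column belonged to another sample. Libraries of a group differed beyond counting noise (chi-square per degree of freedom 7.57 in control and 9.83 in Eif5 cKO), and each was counted as 1 sample.

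Deposited values were tested as log2(value + 1) with limma 3.58.1 (R 4.3.3) with an intensity trend and no covariate besides group, over 12095 genes that passed filterByExpr of edgeR 4.0.16 (minimum count 10). Tests were two-sided, with Benjamini-Hochberg adjustment over all genes and a threshold of 0.05. There were 2 residual and 37.0 prior degrees of freedom, so calls rested on variance pooled over genes. The fit was also run on simulated data, and the outcome is not given or used here.

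The genes and lists were chosen with earlier results of these data known. The text names the 10 genes, Eif5, each called gene and the 2 other genes with the smallest p in each pathway list, and the 5 nearest genes to Tktl1. Outside this rule, Bsg, Gapdh, Gapdhs and the markers Stra8, Hsd17b1, Clu and Spo11 were named after their values were seen. The alternatives were edgeR, DESeq2 1.42.0 and limma-voom on recovered reads, other scalings, pseudocounts of 0.5 and 4, no filter or a filter of 50 reads in 2 libraries, a replicate block, and each library left out. Promoter windows came from RefSeq (GRCm38.p6), where each of the 10 genes had at least 1 window. No coding lengths were at hand, so levels were not compared between genes.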

Additional observations from a re-analysis of the deposited data

How the results depend on the processing

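A fit with 1 library left out has 1 group of a single library, which is assumed to vary like the other group. In these fits, the number of isozyme genes called lower was 0 to 1, of all genes called 10 to 346 (82 with all libraries), of general glycolysis genes 0 to 1, of germ cell forms 0 to 1 and of pentose phosphate genes 0 to 1. Under the other alternatives, each of these counts stayed within 1.5 times its value. In limma, the log2 fold change with the libraries scaled on Sertoli markers turned to -0.23 for Tkt, -0.15 for Pkm, -0.30 for Hk1, -0.16 for Slc16a1 and -0.028 for G6pdx. This scaling rested mainly on the reads of Clu and moved the median of all genes tested to -0.44. With 1 library left out, the log2 fold change ran from -0.39 to 0.040 for Ldha, from -0.13 to 0.41 for Hk1 and from -0.64 to 1.68 for Tktl2; the cause was not tested. Of the genes nearest to Tktl1, Boll did not pass in DESeq2 (adjusted p = 0.0588) or with Sertoli scaling in limma (adjusted p = 0.0713). The replicate numbers share only a number: deviations of same-numbered samples correlated at -0.05 across genes, and the fit with a replicate block called 100 genes and 1 of the 8 isozyme genes, Tktl1 (log2 fold change -1.42). Alternatives that need coding or exon length were not run. Depth limits Ldhc, Gapdhs and Tktl2, with at most 47 reads in a library.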
